A study of Mus musculus with 12 samples.

Results

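Described here are 10 genes of the tumour necrosis factor (TNF) receptor family in mouse regulatory T cells (Treg), the Foxp3-expressing CD4 T cells that restrain immune responses. The genes are Tnfrsf4, Tnfrsf9, Tnfrsf18, Tnfrsf8, Tnfrsf25, Cd27, Tnfrsf1a, Tnfrsf1b, Fas and Tnfrsf26. They were chosen by name, with earlier results of these data known, and found by symbol in both deposited expression tables. There they are 10 of 16232 genes in the in vivo table and 10 of 24421 in the in vitro table. All 10 reached a mean of 1 FPKM in both tables, the level needed to enter a test.

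The 12 libraries of polyadenylated RNA form 6 groups of 2. In each of the 3 settings, Kdm2b conditional knockout mice (cKO) are set against wild-type mice (WT): Treg stimulated in vitro, Treg unstimulated in vitro, and Treg in vivo. All cells came from spleen and lymph nodes. Kdm2b encodes a histone demethylase that recruits the non-canonical Polycomb complex PRC1.1 to unmethylated CpG-rich DNA. The Cre driver, the deleted exons, the stimulus, the time in culture and the strain, age and sex of the mice are not stated in the labels. The labels number the replicates but do not say whether these came from separate mice or cultures, so p-values reflect only how far these samples differ among themselves, possibly for technical reasons. Values are FPKM, fragment counts scaled to transcript length and to the mapped fragments of the library. The sequencing depth behind them is unknown.

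Several features of the libraries bear on what follows. Kdm2b itself stood at 146 and 125 FPKM in the in vivo libraries labelled cKO, against 113 and 110 FPKM in WT. In culture it stood at 66.3 and 70.5 FPKM in stimulated cKO against 74.5 and 71.7 FPKM in stimulated WT, and at 89.8 and 97.4 FPKM in unstimulated cKO against 84.9 and 94.9 FPKM in unstimulated WT. A gene-level value does not check the genotype labels when the deleted exons are unknown, so cKO and WT below mean the libraries so labelled. All 10 Treg markers were above 0 in every library, with sums of 1020 to 1800 FPKM in cultured cKO and 1190 to 2490 FPKM in cultured WT, and 1850 to 2040 FPKM in cKO and 2010 to 2140 FPKM in WT in vivo. Foxp3 reached 238 and 268 FPKM in stimulated cKO against 529 and 696 FPKM in stimulated WT, 71.5 and 82.6 FPKM in unstimulated cKO against 194 and 189 FPKM in unstimulated WT, and 114 and 117 FPKM in cKO against 107 and 106 FPKM in WT in vivo. The 10 B cell markers summed to 850 to 1040 FPKM in cultured cKO and 234 to 395 FPKM in cultured WT, and to 169 and 232 FPKM in cKO against 382 and 452 FPKM in WT in vivo. Fcrla was at 0 in both WT replicate 2 libraries, and Cd22 in the stimulated one. Haemoglobin genes took 1.33% to 11.6% of the FPKM in cultured cKO libraries, most in replicate 1, and at most 0.548% in cultured WT libraries. The WT replicate 2 libraries in culture listed 12379 and 13273 genes at 0, against 9102 to 9857 in the other cultured libraries.

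TNF receptors are membrane proteins that are triggered when a trimeric ligand clusters them. Most members of the family recruit TRAF adaptors and activate NF-kB, while those with a cytoplasmic death domain can also start caspase-dependent cell death. In Treg the costimulatory receptors OX40, 4-1BB, GITR, TNFR2 and DR3 are known for supporting proliferation, survival and maturation, and agonists of several of them have been used to expand or to block Treg.

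The 10 genes lie at few places in the mouse genome (GRCm38.p6 coordinates from RefSeq). A total of 6 are on chromosome 4. Tnfrsf4 (chr4:156013595-156016613) and Tnfrsf18 (chr4:156026322-156028894) are 9.7 kb apart, and Tnfrsf1b (chr4:145212368-145246870) and Tnfrsf8 (chr4:145267132-145315164) are 20.3 kb apart. Tnfrsf9 (chr4:150920155-150946104) and Tnfrsf25 (chr4:152115528-152120119) lie between these clusters. Cd27 (chr6:125232620-125237136) and Tnfrsf1a (chr6:125349723-125362483) are 112.6 kb apart. Fas is on chromosome 19 (chr19:34290647-34327775). Tnfrsf26 (chr7:143607685-143627845) sits beside its decoy receptor relatives Tnfrsf22 (chr7:143634808-143649675) and Tnfrsf23 (chr7:143665807-143686436).

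The levels of the 10 genes spanned more than an order of magnitude within every group. Tnfrsf4, which encodes the costimulatory receptor OX40, was the highest in all 6 groups. It averaged 799 ± 61.8 FPKM in stimulated cKO and 816 ± 11.5 FPKM in stimulated WT, 393 ± 57.3 FPKM in unstimulated cKO and 402 ± 34.3 FPKM in unstimulated WT, and 572 ± 1.1 FPKM in cKO and 505 ± 8.33 FPKM in WT in vivo (SD, n = 2 each). It ranked between 62 and 131 among all genes of a library. Tnfrsf18 (GITR), Tnfrsf9 (4-1BB) and Tnfrsf1b (TNFR2, the receptor of membrane-bound TNF) took the next places in each group, with means between 103 FPKM for Tnfrsf9 in WT in vivo and 609 FPKM for Tnfrsf9 in stimulated WT. Within this trio the order depended on the setting. In vivo the trio ran Tnfrsf18, Tnfrsf1b, Tnfrsf9 in cKO, where the first pair overlapped, and Tnfrsf1b, Tnfrsf18, Tnfrsf9 in WT, where neighbours did not overlap. In stimulated cells of both genotypes it ran Tnfrsf9, Tnfrsf18, Tnfrsf1b with no overlap between neighbours. In unstimulated cells of both genotypes it ran Tnfrsf18, Tnfrsf9, Tnfrsf1b, where the first pair overlapped. Cd27 came next in each group, at 64.2 to 164 FPKM. Its libraries overlapped those of Tnfrsf1b in unstimulated WT and those of Tnfrsf9 in WT in vivo. Tnfrsf25, Fas, Tnfrsf1a, Tnfrsf8 and Tnfrsf26 stood below, with group means of at most 61.3 FPKM.

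**Figure D1:**
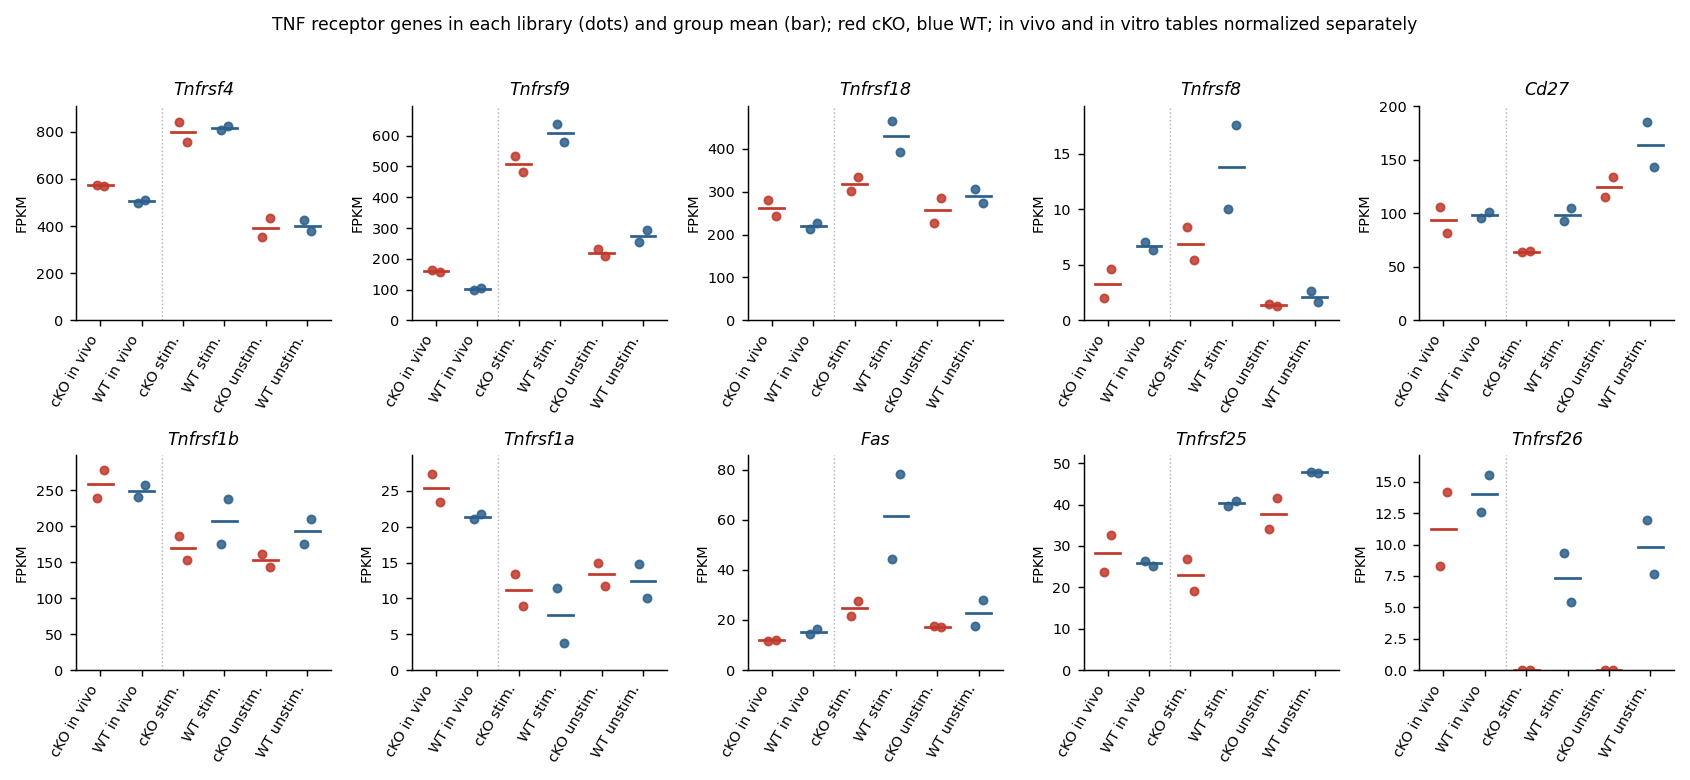
FPKM of the 10 receptor genes, with 1 panel per gene on its own linear axis that starts at 0, cKO (red) left of WT (blue) in each setting, 1 point per library and a bar at the group mean. Tnfrsf4 reaches the highest FPKM, Tnfrsf26 lies at or near 0 in all 4 cultured cKO libraries, and Tnfrsf4, Tnfrsf9 and Tnfrsf8 lie higher in stimulated than in unstimulated libraries of both genotypes.

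The first question was how stimulation in vitro changed the receptors. The costimulatory receptor genes Tnfrsf4, Tnfrsf9 and Tnfrsf8 rose in both genotypes, by 1.02 to 2.2 on the log2(FPKM + 1) scale, and Tnfrsf8 moved furthest. Cd27, whose product binds CD70 and is expressed on resting T cells, fell. The genotypes were also averaged, with 4 libraries per state. In that comparison limma called 6 of the 10 genes (Benjamini-Hochberg adjusted p below 0.05), 5 of them higher (Tnfrsf4, Tnfrsf9, Tnfrsf18, Tnfrsf8 and Fas) and 1 lower (Cd27). Among all 10710 genes tested, 12.4% were called, 5.42% higher and 7% lower. The median log2 fold change was 0.28 over the 10 genes and -0.10 over all genes. Of the 6 other TNF receptor genes that could be tested, 0 were called, and their median was -0.19. The 10 genes were chosen with earlier results known, so their counts describe them and not the family.

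Tnfrsf9 had 535 and 480 FPKM in stimulated cKO against 231 and 208 FPKM in unstimulated cKO, and 637 and 580 FPKM in stimulated WT against 255 and 293 FPKM in unstimulated WT. Both stimulated groups lay above both unstimulated groups. Its log2 fold change was 1.21 (SE 0.15, adjusted p = 0.00725) in cKO and 1.15 (SE 0.15, adjusted p = 0.00918) in WT, and the averaged value was 1.18 (SE 0.10, adjusted p = 0.000737).

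Tnfrsf4 had 843 and 755 FPKM in stimulated cKO against 352 and 433 FPKM in unstimulated cKO, and 808 and 825 FPKM in stimulated WT against 426 and 378 FPKM in unstimulated WT. No stimulated library overlapped an unstimulated library. The log2 fold change was 1.03 (SE 0.16, adjusted p = 0.0172) in cKO and 1.02 (SE 0.16, adjusted p = 0.0186) in WT, and 1.03 (SE 0.11, adjusted p = 0.00178) on average.

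Tnfrsf8, which encodes CD30, a receptor induced on activated lymphocytes, had 8.36 and 5.42 FPKM in stimulated cKO against 1.49 and 1.26 FPKM in unstimulated cKO, and 9.98 and 17.6 FPKM in stimulated WT against 2.60 and 1.69 FPKM in unstimulated WT. Stimulated libraries were higher throughout, at levels far below those of Tnfrsf4 and Tnfrsf9. The log2 fold change was 1.71 (SE 0.34, adjusted p = 0.0353) in cKO and 2.2 (SE 0.34, adjusted p = 0.0178) in WT, and 1.95 (SE 0.24, adjusted p = 0.00284) on average.

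Tnfrsf18 and Fas moved less evenly. Tnfrsf18 had 301 and 334 FPKM in stimulated cKO against 227 and 285 FPKM in unstimulated cKO, and 463 and 393 FPKM in stimulated WT against 306 and 273 FPKM in unstimulated WT. The stimulated libraries were higher in each genotype, but only the averaged change was called (log2 fold change 0.44, SE 0.12, adjusted p = 0.0495), and it lost the call when any 1 of the 8 libraries was left out (adjusted p 0.064 to 0.175). Fas, which encodes a death domain receptor that starts apoptosis when bound by Fas ligand, had 21.7 and 27.7 FPKM in stimulated cKO against 17.7 and 17.0 FPKM in unstimulated cKO, and 44.4 and 78.3 FPKM in stimulated WT against 17.4 and 28.1 FPKM in unstimulated WT. Its WT replicate 2 library was the higher one in both states. The averaged log2 fold change of Fas was 0.92 (SE 0.22, adjusted p = 0.0323). With 1 library left out the call was lost in 6 of 8 fits, all except those without WT unstimulated replicate 2 or WT stimulated replicate 1, with adjusted p of up to 0.119.

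Cd27 had 63.9 and 64.6 FPKM in stimulated cKO against 116 and 134 FPKM in unstimulated cKO, and 92.4 and 105 FPKM in stimulated WT against 185 and 143 FPKM in unstimulated WT. Stimulated libraries were lower in each genotype. The change was called in cKO (log2 fold change -0.94, SE 0.16, adjusted p = 0.0247) and on average (-0.83, SE 0.12, adjusted p = 0.005), and not in WT (-0.72, SE 0.16, adjusted p = 0.0684). Tnfrsf25 encodes DR3, the receptor of TL1A, and had 26.9 and 19.2 FPKM in stimulated cKO against 34.1 and 41.6 FPKM in unstimulated cKO, and 39.8 and 40.8 FPKM in stimulated WT against 48.0 and 47.7 FPKM in unstimulated WT. Its groups did not overlap in either genotype, and its averaged log2 fold change of -0.47 (SE 0.13) missed the threshold (adjusted p = 0.0559).

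The TNF receptors proper gave no call. Tnfrsf1b had 187 and 153 FPKM in stimulated cKO against 162 and 144 FPKM in unstimulated cKO, and 175 and 238 FPKM in stimulated WT against 176 and 210 FPKM in unstimulated WT. Tnfrsf1a, which encodes the death domain receptor TNFR1, had 13.4 and 8.99 FPKM in stimulated cKO against 15.0 and 11.7 FPKM in unstimulated cKO, and 11.4 and 3.81 FPKM in stimulated WT against 14.8 and 10.03 FPKM in unstimulated WT. Stimulated and unstimulated libraries overlapped in both genotypes for both genes. The averaged log2 fold change was 0.12 (95% interval -0.20 to 0.43, adjusted p = 0.602) for Tnfrsf1b and -0.51 (95% interval -1.22 to 0.20, adjusted p = 0.3) for Tnfrsf1a.

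Taken by genotype, the stimulation comparison called 4 of the 10 genes in cKO, 3 higher and 1 lower, against 4.58% of all genes (2.08% higher and 2.49% lower). It called 3 of the 10 in WT, all higher, against 2.43% of all genes (1.61% higher and 0.822% lower). In each genotype 5 genes were higher without overlap, as for 20.7% of all genes in cKO and 18.8% in WT, and 2 were lower, as for 44.1% of all genes in cKO and 22.9% in WT. They were the same genes in both: Tnfrsf4, Tnfrsf9, Tnfrsf18, Tnfrsf8 and Fas were higher in both genotypes, as 11.2% of all genes were, and Tnfrsf25 and Cd27 lower, as 16.7% of all genes were. The 4 averaged calls of Tnfrsf4, Tnfrsf9, Tnfrsf8 and Cd27 were kept whichever 1 of the 8 libraries was left out, with adjusted p of at most 0.0152, 0.00738, 0.0189 and 0.0307. Without both cKO replicate 1 libraries, which held most haemoglobin, 1 of the 6 averaged calls was left, that of Tnfrsf9. The genotype-wise calls were less stable: in cKO those of Tnfrsf4, Tnfrsf8 and Cd27 were lost without any 1 of the 4 cKO libraries (adjusted p of up to 0.153, 0.259 and 0.222) and that of Tnfrsf9 without unstimulated replicate 2, stimulated replicate 1 or stimulated replicate 2 (0.0984, 0.102 and 0.068). In WT the calls of Tnfrsf4 and Tnfrsf8 were lost without WT unstimulated replicate 2 (adjusted p = 0.0549 and 0.0629) or WT stimulated replicate 2 (adjusted p = 0.11 and 0.0803). The WT call of Tnfrsf4 was also lost without cKO stimulated replicate 1 (adjusted p = 0.0506) or cKO stimulated replicate 2 (adjusted p = 0.0521). Other scalings shifted the median of all genes by up to 0.13 in the cKO comparison and by up to 0.11 in the averaged comparison on the log2 scale, with 6 averaged calls among the receptors under each of them.

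**Figure D2:**
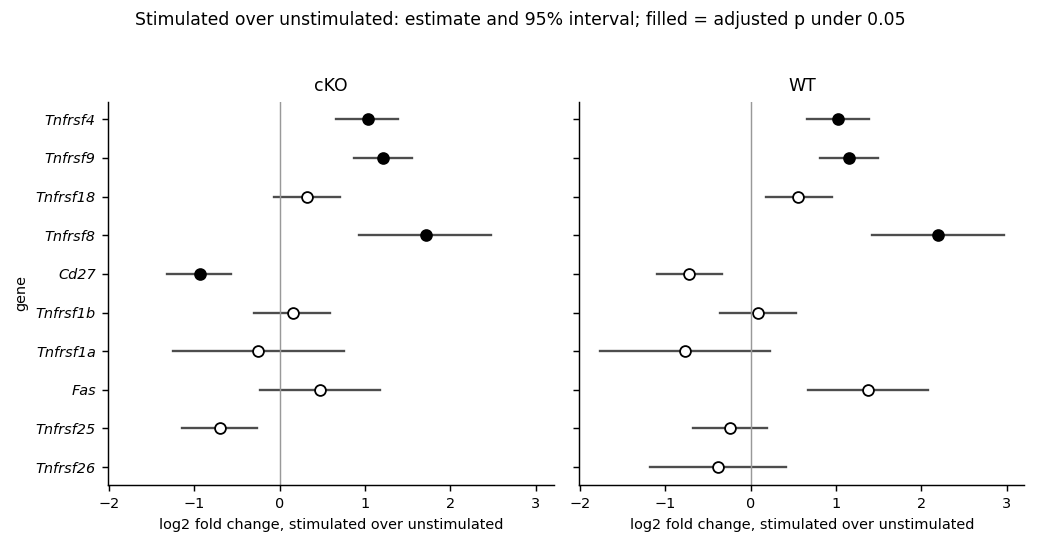
Log2 fold change of each receptor gene, stimulated over unstimulated, with its 95% interval from limma, in cKO (left) and WT (right), with Tnfrsf26 left out in cKO, where it was listed at or near 0. Filled points passed an adjusted p of 0.05: Tnfrsf4, Tnfrsf9 and Tnfrsf8 in both genotypes and Cd27 in cKO.

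The responses of the genotypes were compared by the interaction of genotype and stimulation. No gene of 10710 was called in limma (0%), while 380 had an unadjusted p under 0.05, none of them among the 10 receptors. The interaction was 0.01 for Tnfrsf4 (95% interval -0.51 to 0.52) and 0.06 for Tnfrsf9 (95% interval -0.42 to 0.54) on the log2 scale. Fas had the lowest unadjusted p of the 10 (0.072), with an interaction of -0.90 (95% interval -1.90 to 0.10, adjusted p = 0.999).

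Since several of these genes rose together, the DNA before their starts was searched for the motifs of NF-kB and AP-1, factors that T cell activation switches on. The search covered the 250 bases before each RefSeq start, on both strands, for the kappaB consensus of NF-kB and for TGANTCA, the AP-1 motif. Windows were present for 9 of the 10 genes, 11 windows in all. Across all 32851 RefSeq windows, 3.9% held the kappaB consensus and 6.75% held TGANTCA. The kappaB consensus was found in Tnfrsf8 and at the second start of Tnfrsf9, and TGANTCA in Tnfrsf8, at the same start of Tnfrsf9, and in Fas. The sequences below are shown because they hold these matches. They run 5′ to 3′ on the gene's strand (GRCm38.p6), with matches in capitals; the Tnfrsf8 window is chr4:145315165-145315414 on the minus strand, the Fas window is chr19:34290409-34290658 on the plus strand, and the Tnfrsf9 stretch is the 29 bases chr4:150927947-150927975 on the plus strand around its kappaB matches, which overlap each other.
Tnfrsf8: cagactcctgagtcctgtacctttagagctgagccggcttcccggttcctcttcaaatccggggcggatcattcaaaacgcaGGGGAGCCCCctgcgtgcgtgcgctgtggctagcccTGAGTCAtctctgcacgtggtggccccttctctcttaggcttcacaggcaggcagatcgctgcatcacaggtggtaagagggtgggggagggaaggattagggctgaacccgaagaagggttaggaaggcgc
Fas: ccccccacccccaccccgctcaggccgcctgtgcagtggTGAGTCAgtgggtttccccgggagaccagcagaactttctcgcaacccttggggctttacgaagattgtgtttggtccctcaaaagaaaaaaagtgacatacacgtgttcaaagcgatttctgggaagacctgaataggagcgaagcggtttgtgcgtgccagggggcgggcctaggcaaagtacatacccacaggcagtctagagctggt
Tnfrsf9: agagcagctGGGGATTTCCCaggaggccc
The first base of the kappaB match lay 168 bases before the start in Tnfrsf8 and 43 bases before it in Tnfrsf9. That of TGANTCA lay 132, 15 and 211 bases before the start in Tnfrsf8, Tnfrsf9 and Fas. The windows of Tnfrsf4 and Tnfrsf18 held neither motif. CpG dinucleotides, the sequence feature that the Kdm2b protein binds, numbered between 2 (Tnfrsf18) and 14 (1 of the Tnfrsf25 windows) per window, against a median of 6 over all windows. A match is a string of letters in a window and does not show binding.

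The next question was how the receptors differed between Kdm2b cKO and WT cells in culture. Tnfrsf26 was the single receptor gene called. This gene encodes a mouse TNF receptor for which no TNF ligand is established. It was listed at 0 and 0 FPKM in unstimulated cKO, against 11.96 and 7.66 FPKM in unstimulated WT, and at 0 and 0.0191 FPKM in stimulated cKO, against 9.32 and 5.40 FPKM in stimulated WT. In vivo it had 8.33 and 14.2 FPKM in cKO against 12.6 and 15.5 FPKM in WT, where the groups overlapped (adjusted p = 0.568). The gene passed the filter of 1 FPKM only through its WT libraries, the group where it was high, which limits what its calls mean. The fall in cKO was called in unstimulated cells (adjusted p = 0.0189) and averaged over both states (adjusted p = 0.0038). In stimulated cells the adjusted p was 0.0659. With no filter the unstimulated call was lost in limma (adjusted p = 0.157) and the averaged call was kept. No fold is given, because the cultured cKO values were listed at or near 0. Whether a listed 0 stands for absent RNA or for a failed estimate was not tested.

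The averaged call of Tnfrsf26 was kept whichever 1 of the 8 libraries was left out (adjusted p 0.00347 to 0.0387) and was lost without both cKO replicate 1 libraries (adjusted p = 0.16). Libraries of 1 genotype with the same replicate number resembled each other across the states. With their mean taken as 1 sample, which left 2 cKO against 2 WT, the averaged call was also lost (adjusted p = 0.1), and limma then called 0 of all genes, with 1196 at an unadjusted p under 0.05. The unstimulated call was lost in 6 of 8 such fits, without either unstimulated cKO library (adjusted p = 0.304 without replicate 1 and 0.289 without replicate 2), either stimulated cKO library (0.0781 and 0.0819) or either unstimulated WT library (0.0832 and 0.0519). In stimulated cells the gene was called without WT stimulated replicate 1 (adjusted p = 0.0315), a fit in which 1.84% of all genes were called.

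Counts over the 10 genes, which were chosen with earlier results known, are set beside those of all genes tested as a description. In unstimulated cells 1 of 10 was called, against 0.0747% of all genes (0.056% higher and 0.0187% lower), and 6 of 10 were lower without overlap and 0 higher, as 16.6% and 17.8% of all genes were. In stimulated cells limma called 0 of 10, against 0.0187% of all genes, with 6 of the 10 and 1508 of all genes at an unadjusted p under 0.05, and 7 of 10 were lower without overlap and 0 higher, as 29.8% and 18.5% of all genes were. Averaged over both states 1 of 10 was called, against 1.08% of all genes, with 7 of the 10 and 1738 of all genes at an unadjusted p under 0.05. The cKO libraries lay below the WT libraries in both states for 5 of the 10 genes (Tnfrsf9, Tnfrsf25, Tnfrsf26, Tnfrsf8 and Cd27), as for 8.67% of all genes, and above them in both states for 0 of the 10, as for 7.16% of all genes. The median log2 fold change was -0.33 in unstimulated and -0.52 in stimulated cells over the 10 genes, against 0.02 and -0.05 over all genes.

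The costimulatory receptors that were lower in cKO without being called can be read from the values given above. Averaged over both states, the cKO over WT difference on the log2 scale was -0.57 for Tnfrsf25 (SE 0.13, adjusted p = 0.101) and -0.50 for Cd27 (SE 0.12, adjusted p = 0.101). Tnfrsf8 had -0.64 (SE 0.24, adjusted p = 0.245), Tnfrsf18 -0.30 (SE 0.12, adjusted p = 0.263) and Tnfrsf9 -0.29 (SE 0.10, adjusted p = 0.224). Tnfrsf4 had -0.04 (95% interval -0.30 to 0.22, adjusted p = 0.906), and its genotypes overlapped in both states. Fas stood at 24.7 ± 4.2 FPKM in stimulated cKO and 61.3 ± 24 FPKM in stimulated WT (SD, n = 2 each). The difference was -1.23 on the log2 scale (SE 0.31, adjusted p = 0.166). Without WT stimulated replicate 1 the change in Fas was called in stimulated cells (adjusted p = 0.0493) and on average (adjusted p = 0.0477), where 1.84% and 3.07% of all genes were called. Tnfrsf1a was the one gene with a positive averaged value, 0.37 (95% interval -0.34 to 1.08, adjusted p = 0.607), and Tnfrsf1b had -0.30 (95% interval -0.62 to 0.01, adjusted p = 0.33).

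These lower values came from libraries in which other cell types also differed. B cell and erythroid markers were higher in cultured cKO than in cultured WT libraries, as given above, and the 8 erythroid markers summed to 5110 to 51200 FPKM in cKO and 16.8 to 1690 FPKM in WT. The 10 myeloid markers summed to 49.1 to 199 FPKM in cKO and 24.7 to 34.7 FPKM in WT. The 7 T cell markers in the table summed to 1180 to 1290 FPKM in cKO and 1060 to 1440 FPKM in WT. The 10 Treg markers summed lower in cKO within each state. Foxp3 is part of that sum and alone stood at 238 and 268 FPKM in stimulated cKO against 529 and 696 FPKM in stimulated WT. The sum without Foxp3 was not examined, so a fall of the other markers is not shown. The sums with Foxp3 were 1020 and 1060 FPKM in unstimulated cKO against 1190 and 1270 FPKM in unstimulated WT. In stimulated cells they were 1800 and 1800 FPKM in cKO against 2050 and 2490 FPKM in WT. In bulk RNA, fewer cells of a type and less RNA per cell cannot be told apart. The part of other cells, or of the Treg content, in these differences was not tested. With haemoglobin genes removed and the libraries rescaled, the same 1 call was made in unstimulated cells and on average.

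**Figure D3:**
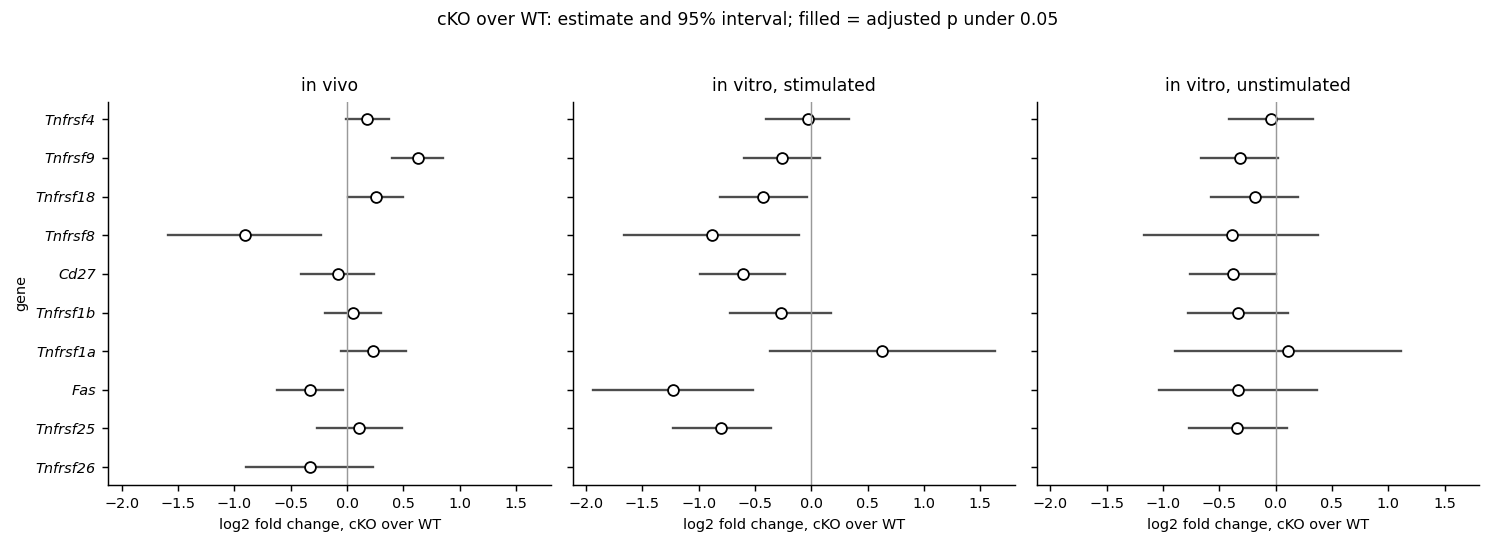
Log2 fold change of each receptor gene, cKO over WT, with its 95% interval from limma, for cells in vivo, stimulated in vitro and unstimulated in vitro, with Tnfrsf26 left out of both in vitro panels because no fold is given against values listed at 0. None of the points drawn passed an adjusted p of 0.05, and Tnfrsf9 lies above 0 in vivo (0.63) and below 0 in both culture states.

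Tnfrsf26 has close relatives next to it, so its neighbourhood was examined. Within 100 kb of Tnfrsf26 the annotation has 11 genes with Tnfrsf26 itself, 7 of them in the in vitro table. Tnfrsf23, a decoy receptor gene, had 0.165 and 0.251 FPKM in unstimulated cKO against 2.03 and 2.12 FPKM in unstimulated WT, and 0.197 and 0.507 FPKM in stimulated cKO against 1.77 and 1.97 FPKM in stimulated WT. The cKO libraries were lower in both states, each under 1 FPKM, so the gene entered the test only through its WT values. It was high enough to be tested in only 6 of the fits that left out 1 of the 8 libraries. The averaged change missed the threshold (log2 fold change -1.22, adjusted p = 0.0528). Of 10 alternatives other than leaving out 1 library, 3 called it in limma. These were no filter (adjusted p = 0.0483), quantile normalization (0.0295) and no trend (0.0155). In vivo Tnfrsf23 had 0.67 and 1.18 FPKM in cKO against 0.99 and 1.40 FPKM in WT.

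Tnfrsf22, the decoy receptor gene between them, had 2.33 and 2.58 FPKM in unstimulated cKO against 5.10 and 11.5 FPKM in unstimulated WT, but 4.64 and 7.34 FPKM in stimulated cKO against 5.25 and 4.95 FPKM in stimulated WT, where the groups overlapped. Other genes nearby were Nap1l4, a histone chaperone gene, and Cars, a cysteine tRNA synthetase gene. Their genotypes overlapped in culture, except for Nap1l4 in unstimulated cells, where both cKO libraries were lower (log2 fold change -0.29, adjusted p = 0.78). Nap1l4 had 76.2 and 78.7 FPKM in unstimulated cKO against 100.4 and 89.4 FPKM in unstimulated WT, and 71.6 and 78.1 FPKM in stimulated cKO against 78.2 and 75.3 FPKM in stimulated WT. Osbpl5, an oxysterol-binding protein gene within the same distance, was lower in cKO in both states, with 6.22 and 6.68 FPKM in unstimulated cKO against 8.28 and 7.46 FPKM in unstimulated WT, and 2.97 and 4.30 FPKM in stimulated cKO against 5.25 and 6.25 FPKM in stimulated WT. Its averaged log2 fold change of -0.40 (SE 0.16, adjusted p = 0.282) was not called, and in vivo its genotypes overlapped. Cars had 36.1 and 33.3 FPKM in unstimulated cKO against 34.1 and 39.2 FPKM in unstimulated WT, and 61.8 and 53.9 FPKM in stimulated cKO against 65.5 and 55.7 FPKM in stimulated WT. In vivo Nap1l4 and Cars were both higher in cKO without overlap, as 21.5% of all genes were. Their log2 fold changes there were 0.19 and 0.15, and neither was called. The remaining gene of the 7, Mir7064, was not called between the genotypes in culture. Tnfrsf22, Tnfrsf23 and Tnfrsf26 are similar in sequence and how shared fragments were counted is not stated, so the split of reads among them is uncertain.

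**Figure D4:**
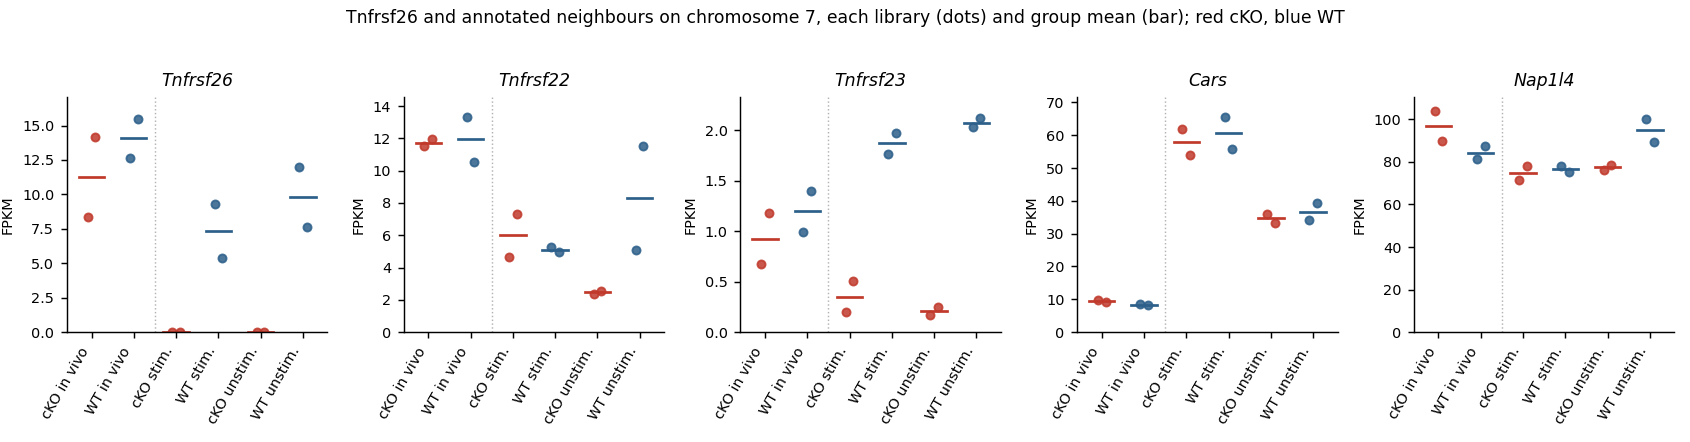
FPKM of Tnfrsf26 and 4 neighbouring genes, with 1 panel per gene on its own linear axis that starts at 0, cKO (red) left of WT (blue) in each setting, 1 point per library and a bar at the group mean. Tnfrsf26 and Tnfrsf23 lie lower in cKO than in WT in both culture states, and their genotypes overlap in vivo.

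In vivo none of the 10 receptor genes was called between the genotypes, against 0.374% of the 10415 genes tested (limma, 4 of the 10 at an unadjusted p under 0.05, 1350 of all genes). The gene nearest to the threshold was Tnfrsf9. It had 162 and 156 FPKM in cKO against 98.4 and 107 FPKM in WT, 2 non-overlapping groups that differed by 0.63 on the log2 scale (SE 0.09, 95% interval 0.40 to 0.85, adjusted p = 0.061). It was called under 3 of the other scalings, with a log2 fold change of 0.65 and adjusted p of 0.0426 to 0.0479, and without the first (adjusted p = 0.0136) or the second cKO library (adjusted p = 0.00457). Without the second cKO library Tnfrsf18, Tnfrsf1a, Tnfrsf8 and Tnfrsf26 were called as well (adjusted p = 0.0255, 0.0446, 0.00182 and 0.0163). The count of all genes called also grew in these fits, to 425 without the first and 1994 without the second cKO library, 4.07% and 19.2% of the genes tested, against 39 with all libraries.

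Of the other costimulatory receptors, Tnfrsf4 had 573 and 572 FPKM in cKO against 499 and 511 FPKM in WT (log2 fold change 0.18, SE 0.08, adjusted p = 0.396). Tnfrsf18 had 281 and 243 FPKM in cKO against 212 and 226 FPKM in WT (log2 fold change 0.26, SE 0.10, adjusted p = 0.369). Tnfrsf8 had 1.97 and 4.61 FPKM in cKO against 7.05 and 6.31 FPKM in WT (log2 fold change -0.91, SE 0.28, adjusted p = 0.275). The cKO libraries lay above WT for Tnfrsf4 and Tnfrsf18 and below WT for Tnfrsf8. Tnfrsf25 had 23.8 and 32.7 FPKM in cKO against 26.4 and 25.1 FPKM in WT, and Cd27 had 106 and 81.8 FPKM in cKO against 95.9 and 102 FPKM in WT. Both overlapped.

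Of the TNF and death receptors in vivo, Fas had 11.7 and 12.2 FPKM in cKO against 14.3 and 16.3 FPKM in WT (log2 fold change -0.33, SE 0.12, adjusted p = 0.335). Tnfrsf1a had 27.3 and 23.5 FPKM in cKO against 21.0 and 21.8 FPKM in WT (log2 fold change 0.23, SE 0.12, adjusted p = 0.448). Tnfrsf1b had 239 and 277 FPKM in cKO against 241 and 258 FPKM in WT, which overlapped. The genotypes did not overlap for 4 genes that were higher in cKO (Tnfrsf4, Tnfrsf9, Tnfrsf18 and Tnfrsf1a), as for 21.5% of all genes, and for 2 that were lower (Tnfrsf8 and Fas), as for 25.8% of all genes. The median log2 fold change was 0.08 over the 10 genes and -0.02 over all genes.

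Ligand genes were called in vivo, where no receptor gene was. In total 3 of the 6 ligand genes that could be tested, of 9 listed, were called lower in cKO, against 0.144% of all genes called lower. Tnfsf8, which encodes the CD30 ligand, had 60.6 and 59.1 FPKM in cKO against 114 and 124 FPKM in WT (log2 fold change -0.98, adjusted p = 0.0261). Tnfsf4, which encodes the OX40 ligand, had 3.11 and 3.77 FPKM in cKO against 9.68 and 8.57 FPKM in WT (log2 fold change -1.19, adjusted p = 0.0374). Fasl, the Fas ligand gene, had 5.84 and 4.88 FPKM in cKO against 11.7 and 12.6 FPKM in WT (log2 fold change -1.05, adjusted p = 0.0425). The cKO and WT libraries did not overlap for any of the 3. Each call was lost without the first or without the second WT library (adjusted p 0.0518 and 0.125 for Tnfsf8, 0.137 and 0.124 for Tnfsf4, 0.118 and 0.24 for Fasl) and with no filter on low values (adjusted p = 0.292 for each), and those of Tnfsf8 and Fasl without limma's trend (0.0507 and 0.0535). B cell markers were also lower in these cKO libraries, as given above, and their part in the ligand values was not tested.

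In culture limma called 0 of the 6 ligand genes between the genotypes, with 1 at an unadjusted p under 0.05 in unstimulated and 3 in stimulated cells. Tnfsf8 had 47.0 and 63.5 FPKM in stimulated cKO against 103 and 91.9 FPKM in stimulated WT (log2 fold change -0.82, adjusted p = 0.185). Tnfsf4 had 2.97 and 2.78 FPKM in stimulated cKO against 5.46 and 6.67 FPKM in stimulated WT (log2 fold change -0.86, adjusted p = 0.171). Fasl had 2.73 and 2.18 FPKM in stimulated cKO against 7.43 and 6.81 FPKM in stimulated WT. In unstimulated cells Tnfsf8 had 52.2 and 74.9 FPKM in cKO against 93.1 and 110 FPKM in WT. There the genotypes overlapped for Tnfsf4 (5.1 and 4.59 FPKM in cKO, 5.04 and 5.25 FPKM in WT). They also overlapped for Fasl (1.57 and 1.17 FPKM in cKO, 4.6 and 1.15 FPKM in WT). With stimulation, Lta, which encodes lymphotoxin alpha, a soluble ligand of the TNF receptors, was the single ligand gene called. It had 55.8 and 47.9 FPKM in stimulated cKO against 7.35 and 8.33 FPKM in unstimulated cKO, and 55.5 and 51.2 FPKM in stimulated WT against 7.48 and 10.9 FPKM in unstimulated WT. The log2 fold change was 2.58 (adjusted p = 0.00206) in cKO and 2.43 (adjusted p = 0.00187) in WT, and these calls were kept whichever 1 library was left out. That in cKO was lost without both cKO replicate 1 libraries (adjusted p = 0.236).

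Of the 17 adaptor and proximal signalling genes, none was called between the genotypes in vivo or in culture. In limma 4 of them had an unadjusted p under 0.05 in vivo, 0 in unstimulated and 1 in stimulated cells. Averaged over the genotypes, limma called 3 of the 17 higher and 2 lower with stimulation, against 5.42% and 7% of all genes. Traf6, the adaptor of toll-like and interleukin-1 receptors and of CD40, had 65.3 and 68.6 FPKM in stimulated cKO against 25.5 and 24.0 FPKM in unstimulated cKO, and 55.3 and 84.9 FPKM in stimulated WT against 20.0 and 21.3 FPKM in unstimulated WT (averaged log2 fold change 1.54, adjusted p = 0.000877). Casp8, the initiator caspase of death receptors, had an averaged log2 fold change of 0.81 (adjusted p = 0.00298), and Ripk1, a kinase of the TNFR1 complex, of 0.77 (adjusted p = 0.00547). Traf2, an adaptor of the costimulatory receptors, had -0.47 (adjusted p = 0.0402), as did its partner Traf1 with -0.44 (adjusted p = 0.0493), which is named to complete the count, after its values were seen. The calls of Traf6, Casp8 and Ripk1 were kept whichever 1 of the 8 libraries was left out, and those of Traf2 and Traf1 were lost in 6 and 7 of 8 such fits, with adjusted p of up to 0.167 and 0.177. Both lower calls were also lost under each of the 4 other scalings, with adjusted p of 0.0753 to 0.161 for Traf2 and 0.0539 to 0.173 for Traf1. Without both cKO replicate 1 libraries Casp8 (adjusted p = 0.0954) and Ripk1 (0.135) lost their calls as well.

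Of the 16 NF-kB subunits and inhibitors, 1 was called between the genotypes in vivo. Bcl3, an atypical I-kappa-B protein that works with NF-kB dimers in the nucleus, had 41.5 and 46.1 FPKM in cKO against 21.2 and 20.8 FPKM in WT (log2 fold change 1.02, adjusted p = 0.0261). The groups did not overlap, and the call was lost without the first (adjusted p = 0.076) or the second WT library (adjusted p = 0.125) and with no filter (adjusted p = 0.292). In culture Bcl3 had 22.9 and 26.4 FPKM in stimulated cKO against 35.1 and 64.1 FPKM in stimulated WT, and 42.5 and 52.8 FPKM in unstimulated cKO against 31.0 and 45.2 FPKM in unstimulated WT, and limma called no gene of the list between the genotypes there (1 of 16 at an unadjusted p under 0.05 in unstimulated, 7 in stimulated cells). Tnfaip3, the gene of the feedback inhibitor A20, had the smallest p of the list on average over both states (log2 fold change -0.69, adjusted p = 0.0516). With stimulation, averaged over the genotypes, Nfkbiz was called higher (log2 fold change 1.23, adjusted p = 0.0145), and Tnip1 (-0.76, adjusted p = 0.00735) and Tnfaip3 (-0.51, adjusted p = 0.0372) were called lower, 1 and 2 of the 16 against 5.42% and 7% of all genes. Without 1 library the call of Tnip1 was kept throughout, that of Nfkbiz was lost in 3 of 8 fits and that of Tnfaip3 in 6 of 8. The Tnfaip3 call was also lost under each of the 4 other scalings (adjusted p 0.0794 to 0.162), with no filter (0.0937) and without the trend (0.0732), and that of Nfkbiz with no filter (0.0573). Without both cKO replicate 1 libraries all 3 calls were lost (adjusted p = 0.153 for Nfkbiz, 0.128 for Tnip1 and 0.222 for Tnfaip3).

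The remaining receptors of the family gave no call in any of these comparisons. Of 14 other TNF receptor genes, 6 were high enough to be tested in each table, and of 4 receptor genes typical of B cells, 3 were. Across the comparisons 0 to 3 of the 6 and 0 to 3 of the 3 had an unadjusted p under 0.05 in limma. In vivo, where the B cell markers summed lower in cKO, the 3 B cell receptor genes did not move together. There Tnfrsf13b had 7.29 and 10.4 FPKM in cKO against 5.87 and 5.36 FPKM in WT. Tnfrsf13c had 1.27 and 1.65 FPKM in cKO against 2.24 and 2.23 FPKM in WT. Cd40 had 1.45 and 1.76 FPKM in cKO against 2.03 and 1.68 FPKM in WT, which overlapped. None of the 3 B cell receptor genes was called in culture, where the B cell markers summed higher in cKO. Cd40 had 16.0 and 9.04 FPKM in unstimulated cKO against 3.60 and 3.46 FPKM in unstimulated WT, and 14.2 and 7.95 FPKM in stimulated cKO against 3.62 and 5.30 FPKM in stimulated WT (averaged log2 fold change 1.32, adjusted p = 0.0567). Tnfrsf13c, the receptor gene of BAFF, had 15.7 and 13.5 FPKM in unstimulated cKO against 2.02 and 7.43 FPKM in unstimulated WT, and 10.5 and 10.1 FPKM in stimulated cKO against 3.08 and 3.22 FPKM in stimulated WT (averaged log2 fold change 1.53, adjusted p = 0.0618). Tnfrsf13b, which encodes TACI, had 16.5 and 13.3 FPKM in unstimulated cKO against 11.3 and 9.74 FPKM in unstimulated WT, and 18.3 and 15.0 FPKM in stimulated cKO against 15.2 and 14.4 FPKM in stimulated WT, where the genotypes overlapped (averaged log2 fold change 0.31, adjusted p = 0.316).

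Genes whose values followed those of a receptor most closely over the 8 cultured libraries were picked by Pearson's r of log2(FPKM + 1) among the 7673 genes averaging 5 FPKM or more. This is a description, since libraries of 1 state share a level in most such genes. Nearest to Tnfrsf4 were Gpld1 (r = 0.992), Socs1 (0.989) and G3bp1 (0.987). Nearest to Tnfrsf9 were Ripk1 (r = 0.991), Gbp5 (0.99) and Il4ra (0.987). Nearest to Tnfrsf18 were Aopep (r = 0.966), Slamf1 (0.951) and Trp53bp2 (0.935). Nearest to Tnfrsf26, which separates the genotypes, were Ormdl3 (r = 0.968), Phlpp1 (0.968) and Il10 (0.96). Il10, the gene of the suppressive cytokine interleukin-10, had 8.93 and 8.14 FPKM in unstimulated cKO against 43.5 and 55.4 FPKM in unstimulated WT, and 13.1 and 7.59 FPKM in stimulated cKO against 35.4 and 33.4 FPKM in stimulated WT.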

How the data were processed

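Expression was deposited as FPKM in separate tables for the 4 in vivo and the 8 in vitro libraries. HISAT2 2.2.1, StringTie 2.1.1 and the builds mm10 and hg19 are named, with no role, per the submitters' processing notes; annotation and filters are not given in the sources used here. In vivo columns name a genotype but no replicate, so first and second library are names taken from the column order. A further 4 per-sample columns were not used. Entrez numbers were matched to RefSeq symbols for 16196 of 16232 in vivo genes; of 24421 in vitro names, 23204 were RefSeq symbols and 1067 synonyms.

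Each table was tested separately with limma 3.58.1 (R 4.3.3; lmFit, eBayes with trend, two-sided) on log2(FPKM + 1), after dropping genes that averaged under 1 FPKM (10415 and 10710 genes left), with Benjamini-Hochberg adjustment over all of them. Genes at an adjusted p under 0.05 are called, and all adjusted p-values are limma's. The scale understates changes of low genes. The 8 in vitro libraries shared 1 fit. Read depth is unknown, so no counting interval is given.

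The 10 receptors, the gene lists and the tests were chosen with earlier results of these data known. All 10 receptors are named; of each other list, the called genes with the smallest adjusted p, up to 4, or values of up to 2 others; the 3 genes most like Tnfrsf4, Tnfrsf9, Tnfrsf18 and Tnfrsf26; and Kdm2b, Foxp3 and the marker sums. The neighbours of Tnfrsf26 and the repeat values in other comparisons were added. Alternatives were a pseudocount of 0.1, no filter, a floor of 5 FPKM, 4 scalings, no trend, the replicate number as a block (also within each genotype, added after the data were seen), only the 4 samples compared, and leaving out libraries. Python 3.11.15 with pandas 2.3.3 and matplotlib 3.10.9 made the tables and figures.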

Additional observations from a re-analysis of the deposited data

Results flagged for a closer look

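Tnfrsf9 was higher in cKO than in WT in vivo, with a log2 fold change of 0.63, and lower in cKO in culture, with -0.32 in unstimulated and -0.26 in stimulated cells. In each of these settings both cKO libraries lay on the same side of both WT libraries. Tnfrsf18 had values of the same signs, 0.26 in vivo and -0.43 in stimulated cells. None of these values was called, and the difference between the settings was not tested, because the in vivo and in vitro tables were made separately. Foxp3 and the B cell markers also differed between cKO and WT in culture in another way than in vivo, with the values given with the description of the libraries, and their part in this pattern was not tested.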

How the results depend on the processing

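Over the alternatives, no called receptor gene or named list gene changed direction. The count of receptor genes called in vivo was 0, and 1 (Tnfrsf9) under median-of-ratios scaling, common-sum (TPM) scaling and removal of haemoglobin genes, and 0 to 5 with 1 library left out. In unstimulated cKO over WT it was 1, and 0 with no filter, with the floor of 5 FPKM (Tnfrsf26 was then not tested), and without both cKO replicate 1 libraries, and 0 to 1 with 1 library left out. In stimulated cKO over WT it was 0, and 1 (Tnfrsf26) under quantile normalization, common-sum scaling, removal of haemoglobin genes and no trend and without both WT replicate 2 libraries, and 0 to 2 with 1 library left out. Averaged over the states it was 1, and 0 with the floor of 5 FPKM, without both cKO replicate 1 libraries and with a block within genotype, and 1 to 2 with 1 library left out. For stimulation it was 3 in WT, and 1 with no filter, 2 with no trend (Tnfrsf4 lost), 4 with the floor of 5 FPKM (Fas added) and without haemoglobin genes (Tnfrsf18 added), 3 without both WT replicate 2 libraries (Tnfrsf4 and Tnfrsf8 lost, Fas and Cd27 added) and 0 with only the 4 samples compared and without both cKO replicate 1 libraries, and 1 to 5 with 1 library left out; 4 in cKO, and 1 with no filter, 2 with no trend and 0 without both cKO replicate 1 libraries, and 0 to 4 with 1 library left out; and 6 averaged over the genotypes, and 1 without both cKO replicate 1 libraries, 5 with a pseudocount of 0.1 and without both WT replicate 2 libraries (Tnfrsf18 lost in each), 4 with no filter and with no trend (Tnfrsf18 and Fas lost in each), 7 with the floor of 5 FPKM (Tnfrsf25 added) and 4 to 6 with 1 library left out. Leaving out libraries reduces the residual degrees of freedom, and a lone library is then assumed to vary like the other groups. The cause of the other moves was not tested.

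The replicate numbers did not pair cKO with WT libraries: same-numbered deviations correlated at -0.14 to 0.06 between the genotypes. Within a genotype they correlated across the states, at 0.42 in cKO and 0.24 in WT. The reported fit of the averaged genotype comparison counts such libraries as separate samples. With the replicate number as a block within each genotype, chosen after seeing the data, limma called 0 receptor genes in it (adjusted p = 0.1 for Tnfrsf26), and 4 in WT (Fas added, adjusted p = 0.0117), 4 in cKO and 6 in averaged stimulation. With the replicate number as 1 block across genotypes, 1 receptor gene was called in unstimulated, 0 in stimulated and 1 in averaged cKO over WT, and 4 in WT, 4 in cKO and 5 in averaged stimulation: Fas was added in WT (adjusted p = 0.0279) and Tnfrsf18 was lost on average (adjusted p = 0.0636). Over all genes that block called 0 genes in stimulated cKO over WT, against 2 without it.

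The count of all genes called ran over the alternatives from 0 to 1994 in vivo (39 in the reported fit), 0 to 52 in unstimulated (8) and 0 to 197 in stimulated cKO over WT (2), 0 to 329 averaged over states (116), 32 to 966 for stimulation in WT (260), 1 to 1932 in cKO (490) and 128 to 2260 averaged over genotypes (1330), and 0 to 5 for the interaction (0). Stimulation in cKO called 223 genes higher and 267 lower, against 308 and 144 with median-of-ratios scaling, 363 and 225 with quantile normalization, 261 and 134 with common-sum scaling and 267 and 177 without haemoglobin genes. In WT it called 172 and 88, against 218 and 68 with common-sum scaling. Averaged over genotypes it called 580 and 750, against 756 and 540, 801 and 636, 771 and 429, and 765 and 465 in the same order. The low counts of stimulated cKO over WT, 2 and 0, became 3 and 1 with quantile normalization and 2 and 1 with common-sum scaling and without haemoglobin genes. Groups of 2 and an unknown depth limit every value here.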
